A study of Mus musculus with 6 samples.

Results

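The genes described here carry heme breakdown and iron storage in platelet RNA: Slc48a1, Hmox1, Hmox2, Blvra, Blvrb, Fth1, Ftl1, Tfrc, Slc40a1 and Nfe2l2. They were taken by symbol from the deposited expression table, which listed all 10 of them among its 14975 genes. The set was selected on the difference between control and pre-AML levels in these same FPKM values, so its differences between groups are given as a description. Standard errors come from the fit across all genes, which adjusts the variance of each gene toward that of the others. The spread of a gene itself is shown by its SDs where given. Calls of this fit are counted once below without being used as support. Platelets came from 3 control and 3 pre-AML libraries of female mice on a C57BL/6 background. The labels give the genotypes as WT and AML. According to the study's methods, pre-AML mice were sub-lethally irradiated secondary recipients of leukemic cells transformed with an MLL-AF9 retrovirus that also carries GFP, and controls were irradiated and transplanted with normal bone marrow. Pre-AML stands for 1 week after transplantation. Irradiation and transplantation are thus shared by both groups, and the blood was depleted of cells with CD45, a leukocyte marker, or Ter119, an erythroid marker, before RNA was extracted. The methods speak of 3 independent mice, while the labels mention 2 replicates per group and pools of 3 to 4 mice, so it is not settled how many animals stand behind a library. What share of these platelets descended from donor cells is not given in the sources used here.

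Heme that enters a cell by endocytosis is moved into the cytosol by the transporter encoded by Slc48a1. Heme oxygenases, the inducible form from Hmox1 and the constitutive form from Hmox2, open the ring and release iron, carbon monoxide and biliverdin, and biliverdin reductases from Blvra and Blvrb make bilirubin. The iron is stored in shells of ferritin heavy (Fth1) and light (Ftl1) chains, leaves the cell through ferroportin (Slc40a1) and comes in with transferrin through its receptor (Tfrc). Nfe2l2 encodes NRF2, a transcription factor that drives Hmox1, ferritin and antioxidant genes under oxidative stress. Ferritin, ferroportin and the transferrin receptor are also controlled at the RNA level by iron regulatory proteins, which bind a short hairpin in the untranslated regions and block translation or protect the transcript.

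The hairpin is shown here because it divides the genes into those with and those without this layer of control. In the principal transcript of each gene (GENCODE release M21), the pattern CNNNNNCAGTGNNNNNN was searched on the transcript strand, with the 5 bases before CAGTG required to pair with the last 5 bases (G with T allowed). Of the 10 genes, 4 held it. In the lines below, capitals mark the unpaired C and the 6-base loop.
Fth1 5′ UTR, chr19:9982733-9982759 (+): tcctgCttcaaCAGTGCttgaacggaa
Ftl1 5′ UTR, chr7:45459780-45459806 (-): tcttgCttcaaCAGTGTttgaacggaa
Slc40a1 5′ UTR, chr1:45925466-45925492 (-): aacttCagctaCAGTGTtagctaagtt
Tfrc 3′ UTR, chr16:32631220-32631246 (+): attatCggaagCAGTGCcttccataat
Tfrc 3′ UTR, chr16:32631599-32631625 (+): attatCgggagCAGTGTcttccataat
Tfrc 3′ UTR, chr16:32631664-32631690 (+): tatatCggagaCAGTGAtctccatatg
Tfrc 3′ UTR, chr16:32631711-32631737 (+): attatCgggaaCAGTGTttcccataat
Coordinates are on GRCm38, the assembly of the authors' mm10 build. Ferritin heavy and light chain, both iron stores, and ferroportin, the exporter, had 1 match each in the 5′ UTR, and Tfrc, the importer, had 4 in the 3′ UTR. Over 20420 protein-coding genes, 0.103% held the pattern in the 5′ UTR and 0.539% in the 3′ UTR. A match is a description of the letters and no measure of binding, and the RNA values below do not report on translation.

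Expression was deposited as FPKM, read fragments scaled to gene length and library size. With exon lengths from GENCODE, 86.1% of the values were whole multiples of 1 read within a tolerance of 0.05, and the reads recovered in this way were between 11935981 and 17778940 per library. All 12 platelet markers were above 1 FPKM in every library, with Pf4 between 58030 and 79255 FPKM in 5 libraries and at 38150 FPKM in pre-AML 3. Pre-AML 3 stood apart in other ways too. Its Spearman correlations across tested genes with the other 5 libraries were 0.842 to 0.880, against 0.962 to 0.973 for the other 10 pairs, and its FPKM values were divided by a library size 1.31 times its reads, while this ratio was 0.983 to 1.01 in the other libraries. Results are therefore given with and without it.

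**Figure D1:**
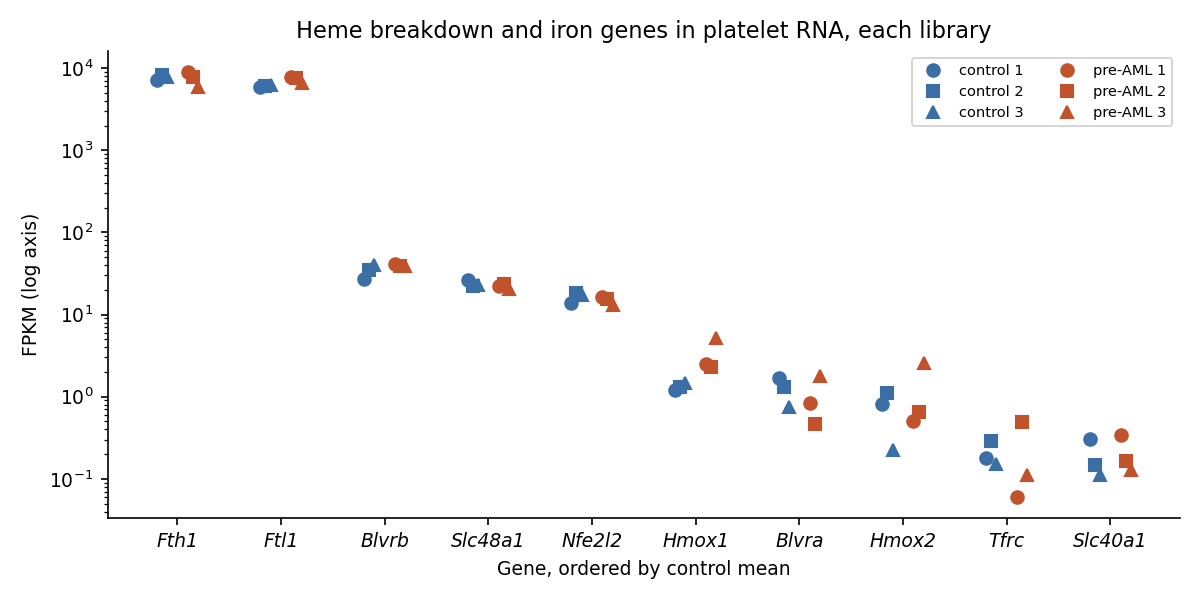
FPKM (log axis) of the 10 genes in each of the 3 control (blue) and 3 pre-AML (orange) libraries, with the marker shape giving the replicate number. Both ferritin chains lie between 5955 and 8976 FPKM, Blvrb, Slc48a1 and Nfe2l2 between 13.1 and 40.7 FPKM, and the other 5 genes at 5.17 FPKM or below.

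In control platelets the 10 genes spread over more than 4 orders of magnitude, as the plot of all libraries shows. Fth1 had 7701 ± 508 FPKM (SD, n = 3) and Ftl1 6097 ± 132 FPKM (SD, n = 3), ranks 11 and 13 of 14975 genes. Their libraries did not overlap. Next came Blvrb with 34.1 ± 6.82, Slc48a1 with 23.9 ± 2.16 and Nfe2l2 with 16.5 ± 2.32 FPKM (SD, n = 3 each), again without overlap. Hmox1 had 1.33 ± 0.139 and Blvra 1.26 ± 0.477 FPKM, and the 3 controls of these genes overlapped. Hmox2 had 0.719 ± 0.454 FPKM, overlapping Blvra. Tfrc, at 0.205 ± 0.0725, and Slc40a1, at 0.187 ± 0.101 FPKM, came last and overlapped each other. So the platelet RNA was rich in transcripts for iron storage and held very little for iron import and export.

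The values per length depend on the length used. The deposited values of most genes fitted the union of all exons, which has 3469 bases for Fth1 and 1340 for Ftl1. For both ferritin chains whole reads could not be recovered, so this length was assumed. The principal transcripts have 1494 and 968 bases. Per kilobase of the latter, the control mean of Fth1 was 17880 and that of Ftl1 8440, so the heavy chain stood further above the light chain than the deposited values show. Ratios between groups do not depend on this choice, since 1 length applies to all libraries.

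Hmox1, the inducible heme oxygenase (Entrez gene 15368, chromosome 8 of GRCm38 from 75093621 to 75100589, plus strand), was higher in every pre-AML library. Its level was 1.22, 1.30 and 1.49 FPKM in control 1, control 2 and control 3, and 2.53, 2.27 and 5.17 FPKM in pre-AML 1 to 3. The lowest pre-AML library thus lay above the highest control, and pre-AML 3 lay above the other pre-AML libraries. Hmox1 averaged 1.33 ± 0.139 FPKM over the controls and 3.32 ± 1.60 FPKM over the pre-AML libraries (SD, n = 3 each), a ratio of 2.49. The difference of mean log2(FPKM + 1) was 0.83 (standard error 0.24). Without pre-AML 3 the ratio was 1.80 and the log2 difference 0.54.

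These levels rest on few reads. Hmox1 had 25, 32 and 31 reads in the controls and 59, 60 and 211 in the pre-AML libraries. The exact Poisson 95% interval, which covers counting error only, ran from 21.9 to 45.2 reads for control 2 and from 44.9 to 76.1 reads for pre-AML 1. All 3 pre-AML libraries were above all controls in 6.14% of the 4412 genes that averaged 1 FPKM or more, and nothing is read from the place of Hmox1 among them. The groups also did not overlap with the libraries rescaled to an equal sum, to their recovered reads or by quantiles. There its log2 difference was 0.82 to 0.96, and relative to the median of all tested genes it was 0.86 to 0.89 in these settings and the deposited scaling. The share of all genes with such a gap was not counted after rescaling, so nothing is read from the repeated gap.

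Macrophages carry much heme oxygenase, and markers of these cells were raised in pre-AML 3. The summed level of 13 macrophage markers, leaving out Lyz2, which stood between 2333 and 3093 FPKM in every library, was 0.547 to 1.46 FPKM in the controls, 1.41 in pre-AML 1, 2.25 in pre-AML 2 and 275 in pre-AML 3. In pre-AML 3, 9 of the 14 markers were at 1 FPKM or more, with C1qb at 128 and Adgre1 at 24.6 FPKM. In pre-AML 1, C1qa and C1qb were listed at 0. Adgre1 was at 0.116 and 0.0819 FPKM in pre-AML 1 and pre-AML 2, against at most 0.0263 FPKM in the controls. Csf1r was at 0.0651 and 0.459 FPKM there, against at most 0.01475 FPKM. Of the 7 macrophage markers that averaged 1 FPKM or more, 2 had all pre-AML libraries above all controls and 0 had all below. Over all tested genes these shares were 6.14% and 12.8%, and nothing is read from this count. Cd163 made up 1.03 FPKM of the sum in pre-AML 1 and 0.807 FPKM in control 2. Spic, a regulator of red pulp macrophages, and Vcam1 were listed at 0 in pre-AML 3. Hmox1 was above all controls in pre-AML 1 and pre-AML 2 as well. Some other leukocyte markers were above the controls in these libraries, with Tyrobp at 4.85 and 4.37 FPKM against at most 0.533, Gzma at 7.25 and 4.61 FPKM against at most 0.353, and Ncr1 at 0.732 and 0.344 FPKM against a listed 0. The part of macrophage or other leukocyte RNA in the Hmox1 level of any pre-AML library was not tested. In bulk RNA, fewer cells of a type and less RNA per cell cannot be told apart.

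**Figure D2:**
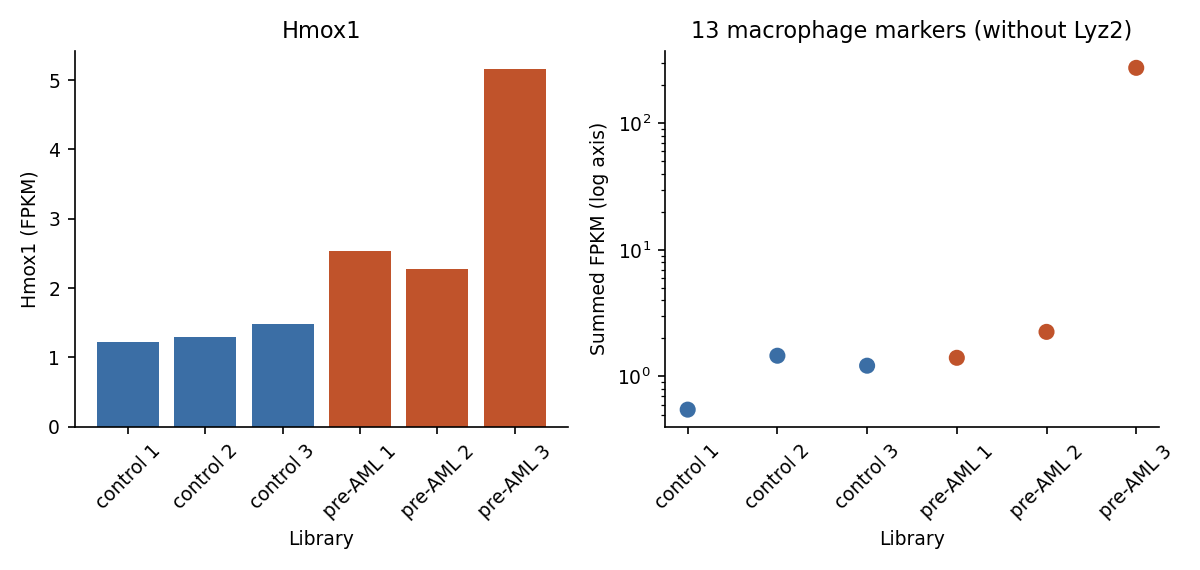
Left, Hmox1 in FPKM (bars from 0) and right, the summed FPKM of 13 macrophage markers (log axis), for each library in control (blue) and pre-AML (orange). Hmox1 is at 2.27 FPKM or more in all pre-AML libraries. The summed markers are at 275 FPKM in pre-AML 3 and at most 2.25 FPKM elsewhere. The part of macrophage RNA in the Hmox1 level was not tested.

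The constitutive heme oxygenase did not follow the inducible form. Hmox2 (chromosome 16, 4726361 to 4766742, plus strand) had 0.807, 1.12 and 0.227 FPKM in the controls and 0.509, 0.658 and 2.59 FPKM in pre-AML 1 to 3. Pre-AML 1 and pre-AML 2 lay within the control range and pre-AML 3 alone above it. The ratio of means was 1.74 with pre-AML 3 and 0.811 without it. Of its 2217 exon bases, 892 are shared with Cdip1 on the other strand, and the library kit does not mark strand, so reads there cannot be told apart. Cdip1 was at 0.178 to 0.537 FPKM.

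Of the biliverdin reductases, Blvrb was the abundant form and Blvra the rare one. Blvrb had 26.8, 35.3 and 40.2 FPKM in the controls and 40.7, 39.0 and 39.3 FPKM in pre-AML 1 to 3, and only pre-AML 1 exceeded the highest control. Its log2 difference was 0.23 (standard error 0.17), and 0.07 without control 1, which was the lowest library. Blvra had 1.71, 1.31 and 0.756 FPKM in the controls and 0.830, 0.461 and 1.80 FPKM in pre-AML 1 to 3. Here pre-AML 2 was the lowest and pre-AML 3 the highest of all libraries. The ratio of pre-AML to control means was 0.821, and 0.513 without pre-AML 3. Blvra levels rest on 17 to 103 reads.

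Slc48a1, which lets heme out of endosomes, was a gene of medium level. It had 26.4, 22.2 and 23.2 FPKM in the controls and 22.3, 23.5 and 20.6 FPKM in pre-AML 1 to 3, and the groups overlapped. The log2 difference was -0.11 (standard error 0.13). Its sign turned with the libraries rescaled to an equal sum, to 0.06, or to their recovered reads, to 0.02. With trends in gene length and GC content taken out it was -0.26, and all pre-AML libraries were then below all controls. In the deposited scaling, 12.8% of the tested genes had all pre-AML libraries below all controls. This share was not counted after the correction, so nothing is read from the gap.

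The 2 ferritin chains are iron stores of the same shell, and their deposited values differed in pattern. Ftl1 (Entrez gene 14325, chromosome 7, 45457944 to 45459884, minus strand) had 5955, 6120 and 6217 FPKM in control 1 to 3 and 7848, 7527 and 6624 FPKM in pre-AML 1 to 3. All pre-AML libraries were above all controls, as in 6.14% of the tested genes. Ftl1 averaged 6097 ± 132 FPKM over the controls and 7333 ± 634 FPKM over the pre-AML libraries (SD, n = 3 each), a ratio of 1.20. Fth1 (Entrez gene 14319, chromosome 19, 9980598 to 9985098, plus strand) had 7142, 8133 and 7827 FPKM in the controls and 8976, 7821 and 5970 FPKM in pre-AML 1 to 3. Pre-AML 1 was the highest and pre-AML 3 the lowest of all libraries, and the ratio of means was 0.986. Without pre-AML 3 the ratio was 1.09 for Fth1 and 1.26 for Ftl1. The log2 difference of Fth1 was -0.04, and 0.12 without pre-AML 3. It was 0.13 with libraries rescaled to an equal sum, 0.09 with recovered reads and -0.19 with quantiles. The sign of the Fth1 difference thus depended on pre-AML 3 and on the scaling. Approximate reads on both chains, with the assumed lengths, made up 3.22, 3.69 and 3.53% of the reads on listed genes in the controls and 4.09, 3.77 and 3.88% in the pre-AML libraries. Each pre-AML library was again above each control in this percentage, which does not depend on how FPKM was scaled. It does depend on the other transcripts of a library, and trends in GC content were not taken out of it. How many of all genes had such a gap in their percentage of reads was not counted, so nothing is read from it.

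Within each library the ratio of Ftl1 to Fth1 is free of library scaling. It was 0.834, 0.752 and 0.794 in the controls and 0.874, 0.962 and 1.11 in pre-AML 1 to 3, a mean of 0.794 ± 0.0407 against 0.982 ± 0.119 (SD, n = 3). The libraries also differed in how a gene's deviation from its mean went with its GC content. Across tested genes, which are not independent, the Spearman correlation was -0.30, -0.40 and -0.31 in the controls and -0.05, 0.32 and 0.49 in pre-AML 1 to 3. The longest transcript of Ftl1 has 58.1% GC and that of Fth1 49.95%. Once the trends in length and GC were taken out of each library, the log2 difference of Ftl1 went from 0.26 to 0.06, and its groups overlapped. The log2 ratio of Ftl1 to Fth1 was then -0.16, -0.35 and -0.20 in the controls and -0.21, -0.12 and -0.08 in pre-AML 1 to 3, so the groups overlapped here too. The groups of Ftl1 also overlapped with quantile normalization, at a log2 difference of 0.12. Ferritin has near-identical processed copies in the genome, and 464 of the 1340 exon bases of Ftl1 are shared with other annotated genes. How the authors' counting split such reads is not given in the sources used here, so ferritin values are uncertain to that extent. Hmox1 had a log2 difference of 0.72 and a gap between its groups under the same correction. The share of all genes with such a gap was not counted after this correction, so nothing is read from it.

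**Figure D3:**
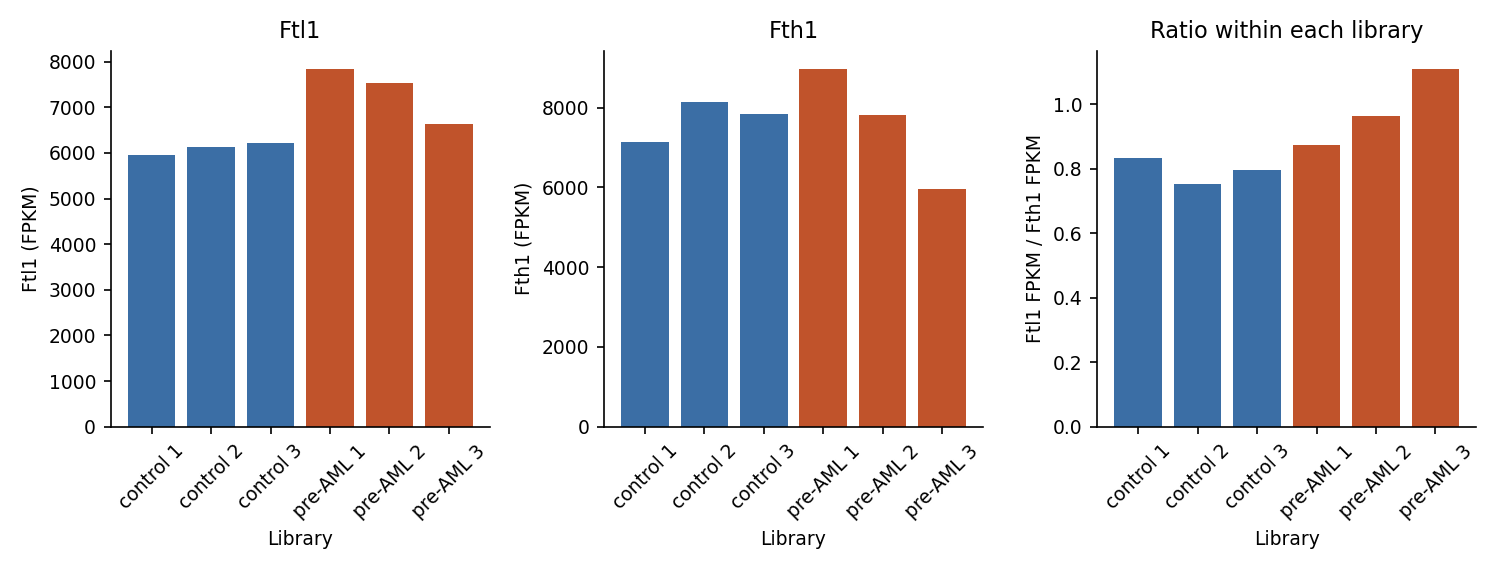
Ftl1 in FPKM, Fth1 in FPKM and the ratio of both within each library (bars from 0), for control (blue) and pre-AML (orange). Ftl1 is above 6217 FPKM in all pre-AML libraries, Fth1 overlaps between groups, and the ratio is 0.752 to 0.834 in control and 0.874 to 1.11 in pre-AML platelets.

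Both transport genes with iron-responsive hairpins were near the limit of detection. Tfrc, the transferrin receptor (chromosome 16, 32608920 to 32632794, plus strand), had 13, 25 and 11 reads in the controls and 5, 46 and 16 in pre-AML 1 to 3, or 0.0608 to 0.493 FPKM over all libraries. Pre-AML 2 was the highest and pre-AML 1 the lowest. For pre-AML 1, 5 reads allow 1.62 to 11.7 reads by the exact Poisson interval. Alas2, the heme synthesis enzyme of red cell precursors, named here after its values were seen, was also highest in pre-AML 2, at 1.96 FPKM, against 0.140 to 0.838 FPKM in the other 5 libraries. Slc40a1 (chromosome 1, 45908068 to 45926523, minus strand) was at 0.112 to 0.302 FPKM in the controls and 0.127 to 0.345 FPKM in the pre-AML libraries, on 9 to 31 reads, and the groups overlapped. Its reads were not whole with the GENCODE length and were recovered with a fitted one of 6771 bases. Neither gene averaged 1 FPKM, so neither entered the fit across all genes. The log2 difference was 0.004 for Tfrc and 0.03 for Slc40a1. With trends in gene length and GC content taken out it was 0.295 and 0.264, and the groups of both genes still overlapped.

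Nfe2l2 (chromosome 2, 75675513 to 75704641, minus strand) did not follow Hmox1, a known target of its product. It had 13.8, 18.3 and 17.3 FPKM in the controls and 16.4, 15.3 and 13.1 FPKM in pre-AML 1 to 3, with overlapping groups. The log2 difference was -0.13 (standard error 0.16). The ratio of Hmox1 to Nfe2l2, again free of library scaling, was 0.0711 to 0.0878 in the controls and 0.154, 0.149 and 0.393 in pre-AML 1 to 3. NRF2 acts mainly through the stability of the protein, which RNA does not show. The antioxidant response letters TGACNNNGC or TGAGNNNGC, on either strand, were found from 250 bases before to 50 after a RefSeq start site (GRCm38.p6) in Blvra, Blvrb and Nfe2l2 among the 7 genes with a listed promoter, and in 30.8% of all genes. Hmox1, Slc40a1 and Slc48a1 were not searched.

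Of the 10 genes, 7 averaged 1 FPKM or more over the 6 libraries and entered the fit across all genes (limma-trend on log2(FPKM + 1)). Hmox2, Tfrc and Slc40a1 fell below. At an adjusted p under 0.05, 0 of the 7 were called by limma-trend, as by limma-voom on recovered reads, and at an unadjusted p under 0.05 it was 1, Hmox1. The background over all 4412 tested genes was 0.0227% higher and 0% lower at the adjusted threshold and 2.56% higher and 6.53% lower at the unadjusted one. The last split, 113 higher against 288 lower, depended on the scaling: it was 275 against 194 with libraries rescaled to an equal sum, 252 against 257 with recovered reads and 190 against 280 with quantiles. Since the set was chosen with this comparison in view, nothing is read from these counts.

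Other genes of heme and iron handling were followed with 7 lists of 77 genes, none of them among the 10 genes above. Of these, 73 were listed and 36 passed the filter. By limma-trend 0 of the 36 were called in either direction, against the same background of 0.0227% and 0%, and by limma-voom it was also 0. At an unadjusted p under 0.05, 1 was higher and 2 were lower. All pre-AML libraries were above all controls in 2 of the 36, Urod and Pcbp1. They were below all controls in 4, among them Snx3, Gclm and Prdx1. Over all tested genes these shares were 6.14% and 12.8%, and nothing is read from these counts. Their median log2 difference was -0.01, and that of all tested genes -0.06.

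Few genes of heme synthesis or transport reached 1 FPKM in these platelets. For synthesis 3 of 9 passed the filter, among them Urod with 3.29 ± 0.551 FPKM in control against 4.21 ± 0.598 FPKM in pre-AML platelets (SD, n = 3 each). Of 9 listed genes for heme transport and binding, Pgrmc1, a heme-binding membrane protein, was the only one to pass, with 26.8 ± 2.67 and 22.3 ± 4.10 FPKM. In iron uptake and export, 3 of 12 passed. Snx3, a sorting nexin that recycles the transferrin receptor, had 149 ± 6.38 and 128 ± 12.4 FPKM, and its adjusted p was 0.539 (limma-trend). Trf, which encodes transferrin, was at 17.8 FPKM in pre-AML 3 and at most 0.599 FPKM in the other 5 libraries, so its log2 difference of 1.44 was 0.15 without pre-AML 3. Slc11a1, an iron transporter of phagocytes that was named after its values were seen, went the same way, with 5.90 FPKM in pre-AML 3 and at most 0.125 FPKM elsewhere.

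In the list for mitochondrial iron and iron-sulfur clusters, 6 of 12 listed genes passed, with a median log2 difference of -0.13. The median of all tested genes, -0.06, was 0.08 with libraries rescaled to an equal sum. The scaffold protein gene Iscu had 33.5 ± 2.94 FPKM in control against 34.9 ± 3.95 FPKM in pre-AML platelets (SD, n = 3 each). Isca1, for an assembly factor, had 33.4 ± 3.16 and 25.5 ± 5.23 FPKM (adjusted p = 0.522 from limma-trend). Among genes of iron sensing and ferritin turnover, 4 of 6 listed passed. Pcbp1, whose product delivers iron to ferritin, had 5.17, 6.80 and 6.61 FPKM in the controls and 7.11, 9.60 and 12.3 FPKM in pre-AML 1 to 3, without overlap. Its log2 difference of 0.55, with a standard error of 0.20, had an adjusted p of 0.522 in limma-trend and was 0.37 without pre-AML 3. Ncoa4, the receptor that takes ferritin to the lysosome, had 4.85 ± 0.128 and 4.28 ± 0.874 FPKM (SD, n = 3).

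For NRF2, 7 of 9 partners and repressors and 12 of 16 target genes passed, and 0 were called. Nfe2, the megakaryocyte relative of NRF2, was the highest of the first list with 123 ± 8.16 FPKM in control against 126 ± 10.8 FPKM in pre-AML platelets (SD, n = 3 each). Rbx1 and Cul3, parts of the ligase that degrades NRF2, had log2 differences of -0.23 and -0.43, with overlapping groups. Their adjusted p was 0.602 and 0.536 (limma-trend), and without pre-AML 3 the differences were -0.09 and -0.33. Keap1 of the same list, named after its values were seen, was below the filter. It had 0.582 ± 0.148 FPKM in control against 0.757 ± 0.270 FPKM in pre-AML platelets (SD, n = 3 each), also with overlap. Bach1, a repressor of Hmox1 that was named after its values were seen, had 1.42, 1.85 and 1.10 FPKM in the controls and 0.791, 1.15 and 0.777 FPKM in pre-AML 1 to 3, with overlapping groups (adjusted p = 0.526 from limma-trend). Of the target genes, 4 had a difference above and 8 below 0, where all tested genes had 1829 above and 2583 below. Taldo1 of the pentose phosphate pathway was the most abundant, with 1347 ± 63.1 and 1341 ± 193 FPKM. Gclm, for a subunit of the enzyme that starts glutathione synthesis, had 137 ± 8.67 and 106 ± 17.3 FPKM, and Prdx1, a peroxiredoxin, 62.0 ± 9.01 and 43.3 ± 12.1 FPKM (SD, n = 3). Both had an adjusted p of 0.522 (limma-trend), with log2 differences of -0.37 and -0.54 that were -0.23 and -0.30 without pre-AML 3.

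**Figure D4:**
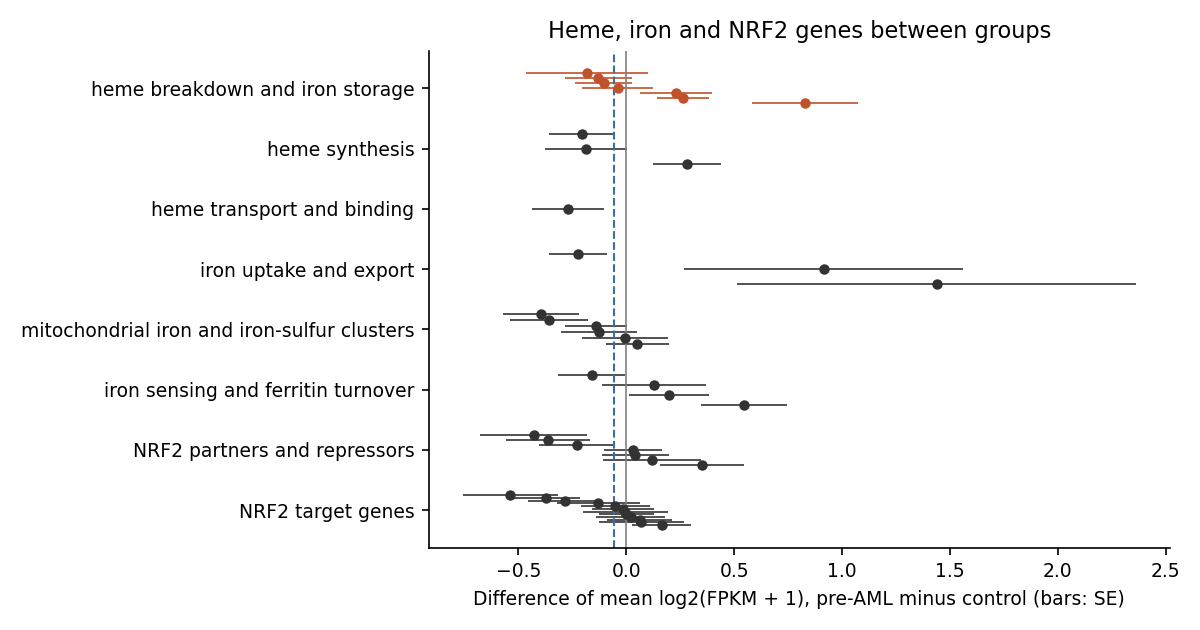
Difference of mean log2(FPKM + 1), pre-AML minus control, with its standard error from limma-trend, for the 7 heme breakdown and iron genes that passed the filter (orange) and 36 other genes in 7 lists (black). The dashed line is the median of all tested genes, at -0.06. Hmox1 stands at 0.83, and the 2 values beyond it, Trf and Slc11a1, rest on pre-AML 3.

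Over the 6 libraries, the genes most like Hmox1 in log2(FPKM + 1) were Atg101, Tyrobp, Sult1a1, Septin1 and Pisd-ps1, with Pearson correlations of 0.995, 0.986, 0.984, 0.983 and 0.983. All points share the libraries and their depth, and 111 genes reached 0.9 or more. With each library left out in turn, the correlation of Atg101, an autophagy initiation gene, was 0.9845 to 0.9995. Atg101 had 3.04, 2.94 and 3.26 FPKM in the controls and 3.95, 3.86 and 5.40 FPKM in pre-AML 1 to 3. Tyrobp, a leukocyte adaptor gene, was at 0.126 to 0.533 FPKM in the controls and 4.85, 4.37 and 153 FPKM in pre-AML 1 to 3. Among the other 6 heme breakdown and iron genes that passed the filter, Blvrb had the highest correlation with Hmox1, at 0.52, and Slc48a1 the lowest, at -0.73. This order rested on pre-AML 3. Over the other 5 libraries the correlation was 0.995 for Ftl1, from 0.46, 0.69 for Fth1, from -0.56, and 0.68 for Blvrb. It was -0.46 for Slc48a1 and lowest for Blvra, at -0.76, from 0.17. Genes that differ between the groups can correlate highly with Hmox1 for that reason alone, so nothing is read from these values. How many of all tested genes reach such a correlation over the 5 libraries was not counted.

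Erythroid cells are rich in heme genes, and their markers gave no single direction. Of the 12 erythroid markers, 9 were listed and 3 passed the filter. Their summed level was 2351 to 2653 FPKM in control and 2377 to 2991 FPKM in pre-AML libraries. Hba-a1 had 1200, 1506 and 1310 FPKM in the controls and 2023, 1799 and 1721 FPKM in pre-AML 1 to 3, and Hbb-bt 1409, 1079 and 1011 against 940, 1056 and 639 FPKM. The adjusted p was 0.522 for both (limma-trend), and globin genes have near-identical copies, so their counts are uncertain. Of the other marker sums, that of B cells was 2.01 to 2.40 FPKM in the controls and 1.21, 25.1 and 278 FPKM in pre-AML 1 to 3, and that of monocytes without Lyz2 was 153 to 207 against 131 to 323 FPKM. Most of the monocyte sum was F13a1, which platelets also carry, at 152 to 207 FPKM in the controls and 150, 125 and 95.9 FPKM in pre-AML 1 to 3. Without it, the other 8 monocyte markers summed to 0.402 to 1.33 FPKM in the controls and 5.31, 6.17 and 227 FPKM in pre-AML 1 to 3, where most of it was Tyrobp. Neutrophil markers summed to 3.16 to 3.66 against 1.39 to 4.94 FPKM, and T and NK cell markers to 19.1 to 28.6 against 33.3 to 35.9 FPKM, where Gzma was the 1 gene called among the 4412 tested. With all 14975 genes tested, 0 were called. The part of RNA from these cells in the values of the heme and iron genes was not tested.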

How the data were processed

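RNA of purified platelets was amplified with SMART-Seq2, made into Nextera XT libraries and mapped by the authors to mm10 with STAR, followed by DESeq2. The authors deposited FPKM values for 14975 genes and 6 libraries. The counting program and annotation are not given in the sources used here. Columns were matched to samples by name. Reads were recovered with exon-union lengths (GENCODE M21, GRCm38), known for 14911 genes, and were whole in all libraries for 12182. Lengths were refitted for Blvrb and Slc40a1, and ferritin reads are approximate. The genes described and the lists were chosen with earlier results of these data known. Other heme and iron genes were named by rule: per list the 2 most abundant tested genes and the largest absolute difference. An item that this rule names is not reported here. For marker lists, the 2 most abundant genes were Pf4 and Ppbp (platelet), Hba-a1 and Hbb-bt (erythroid), Lyz2 and C1qb (macrophage), Lyz2 and F13a1 (monocyte), S100a8 and Mmp8 (neutrophil), Cd74 and H2-Ab1 (B cell), and Nkg7 and Gzma (T and NK cell). The 4412 genes that averaged 1 FPKM or more were tested on log2(FPKM + 1) with limma-trend (limma 3.58.1, R 4.3.3), Benjamini-Hochberg adjustment and a threshold of 0.05, without covariates. The test was checked on simulated data. A fold change on this scale understates that of low genes. Where nothing shows that libraries came from separate mice, p-values measure only the spread between libraries. Scripts used Python 3.11.15, numpy 2.4.6, pandas 2.3.3 and scipy 1.17.1.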

Additional observations from a re-analysis of the deposited data

How the results depend on the processing

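Of the 4412 tested genes, 1 passed the adjusted threshold, and the count was 0 with no filter (14975 genes), with at least 1 FPKM in every library, with libraries rescaled to an equal sum or to recovered reads, and with limma-voom on recovered reads. It was 0 to 2 with each library left out: 0 without control 1 or control 3 and 2 without pre-AML 3. Of the other heme and iron genes, 0 were called in any of the 15 alternatives. At an unadjusted p under 0.05, the counts over all genes were 113 higher and 288 lower and ranged from 69 to 497 and from 132 to 447, and over the other heme and iron genes from 0 to 4 in each direction. Rescaling to an equal sum moved the median of all tested genes by 0.14 on the log2 scale. The median log2 difference of the 10 genes was between -0.04 and 0.10 over 14 alternatives, including the length of the principal transcript, which was chosen after seeing the data. Limma-voom gave no value for this median, since 3 of the genes were below its filter. Over 14 alternatives the log2 difference was 0.54 to 1.31 for Hmox1, 0.06 to 0.43 for Ftl1, 0.07 to 0.40 for Blvrb and -0.19 to 0.13 for Fth1. Leaving out a library cannot turn the sign for Hmox1 or Ftl1, whose groups did not overlap in the deposited scaling. Dropping the filter or adding the replicate block leaves each difference as it was. Nothing is therefore read from the signs. With the replicate block the count of called genes was 1. Libraries with the same number did not deviate together (correlations of -0.04, -0.12 and -0.17). With 3 libraries per group and pre-AML 3 far from the others, these correlations cannot show whether the numbers pair libraries. Hmox1, Hmox2, Blvra, Tfrc and Slc40a1 rest on 5 to 25 reads in their lowest libraries.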
